A study of Mus musculus with 8 samples.

Results

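The genes described here are 30 mouse genes of lipogenesis (the making of fatty acids and triglyceride from acetyl-CoA) and of cholesterol synthesis, with the regulators that set their transcription. They were taken by gene symbol, and all 30 were found among the 18215 genes listed in the 8 deposited tables. Messenger RNA from heart was sequenced in 8 libraries. The TG group holds 4 libraries from mice labelled as transgenic for Carns, the gene of carnosine synthase (Carns1 in current naming), and the WT group holds 4 libraries from wild-type mice. The promoter of the transgene, the strain, age and sex, and whether each library came from a separate animal are not given in the sources used here, so that the p-values reflect the spread of the libraries alone, which may be technical. All 30 genes were listed above 0 in each of the 8 libraries, and all 30 passed the filter on low counts.

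In lipogenesis, citrate exported from mitochondria is split to acetyl-CoA, which is carboxylated to malonyl-CoA and then built into palmitate by fatty acid synthase. Stearoyl-CoA desaturases put a double bond into the product, and diacylglycerol acyltransferases close the pathway by making triglyceride. Cholesterol is made from the same acetyl-CoA through mevalonate, farnesyl diphosphate and squalene. The transcription factors of the SREBP family, held in the endoplasmic reticulum by SCAP and the INSIG proteins when sterols are plentiful, drive both pathways, and ChREBP (gene Mlxipl) drives lipogenesis in response to glucose metabolites. Liver and fat make fatty acids at high rates. The heart mainly burns them, and in muscle the malonyl-CoA made by the second acetyl-CoA carboxylase restrains the entry of fatty acids into mitochondria.

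The libraries held 6261193 to 7897629 expected counts, an estimate of the reads per gene that need not be whole, on 15877 to 16109 listed genes each. Values below are counts per 1000000 (CPM) on library sizes scaled by edgeR's TMM method, and the level of 3 counts, taken as the limit of detection, was 0.380 to 0.479 CPM; it covers counting error only. Carns1 stood at 19070 to 24290 CPM in the TG libraries and at 44.5 to 73.3 CPM in the WT libraries, in accord with the labels. TG replicate 2 stood apart from the other 7 libraries in markers of other tissue. All 13 of 13 white adipocyte markers examined were highest in it, and so were all 7 of 7 brown adipocyte markers and 5 of 6 atrial markers. It was the highest library for 15.2% of all genes tested. Among these markers Elovl3 (0.476 CPM) and Bmp10 (0.159 CPM) lay below its limit of detection. The margin over the next library differed widely, from 1.04-fold for Pnpla2 and 1.29-fold for Fabp4 to 21.9-fold for Adipoq, for example. The fold changes of the members described in every library are therefore given with and without this library.

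None of the 30 genes rose or fell in TG hearts at an adjusted p under 0.05 by edgeR's quasi-likelihood test with Benjamini-Hochberg adjustment over 12670 genes. Of all genes tested, 2 passed, Carns1 and Lrrc15, or 0.0158%. At an unadjusted p under 0.05 stood 3 of the 30 genes, Scd1, Fasn and Acaca, all higher in TG, against 3.49% of all genes tested in either direction and 1.53% in the direction of higher TG. In no member did the TG and WT values fail to overlap (0 of 30, against 2.53% of all genes tested). The fitted sign was positive for 17 genes and negative for 13, with a median log2 fold change of 0.03 for the 30 genes and 0.00 (-0.002) for all genes tested. Without TG replicate 2 the 30 genes divided into 15 positive and 15 negative, with a median of 0.01 and none at an unadjusted p under 0.05. DESeq2 called 15 of the 12661 genes to which it gave an adjusted p (0.118%) and none of the members. It put no member under an unadjusted p of 0.05, and its outlier rule gave no p for Scd1, Fasn and Acaca.

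**Figure D1:**
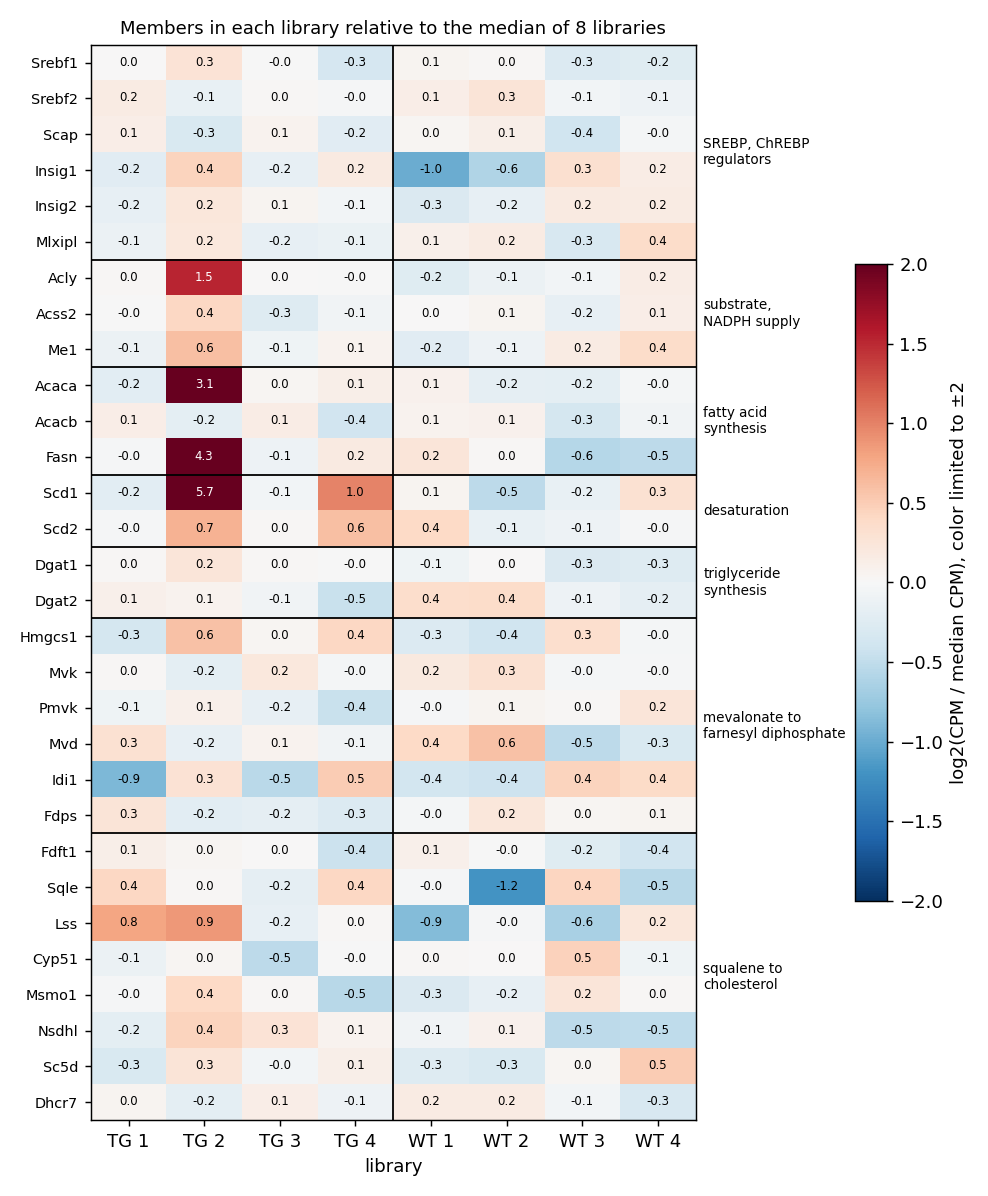
Rows are the 30 genes in 7 roles and columns the 8 libraries, and each cell gives the log2 ratio of the CPM to the median of the 8 libraries (color limited to 2 on either side). Fasn, Acaca and Acly stand out in TG replicate 2, as does Scd1, which is next highest in TG replicate 4.

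Per unit of length, on the deposited FPKM scale, the 30 genes spanned a wide range in WT heart, and 13 of them averaged over 10 FPKM, 15 lay from 1 to 10 and 2 lay under 1. The highest was Dgat2, the acyltransferase of the last step of triglyceride synthesis, at 215.0 ± 36.7 FPKM (SD, n = 4). Acacb, the mitochondrial acetyl-CoA carboxylase, followed at 57.1 ± 6.68, and Me1, the cytosolic malic enzyme that supplies NADPH, at 46.1 ± 10.1, and these 2 overlapped in their ranges over WT libraries. The cytosolic carboxylase Acaca stood at 2.14 ± 0.230 FPKM and fatty acid synthase (Fasn) at 4.65 ± 1.198 FPKM. The lowest were the sterol enzymes Sqle, squalene epoxidase, at 0.490 ± 0.230 and Lss, lanosterol synthase, at 0.307 ± 0.112 FPKM, whose ranges overlapped.

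**Figure D2:**
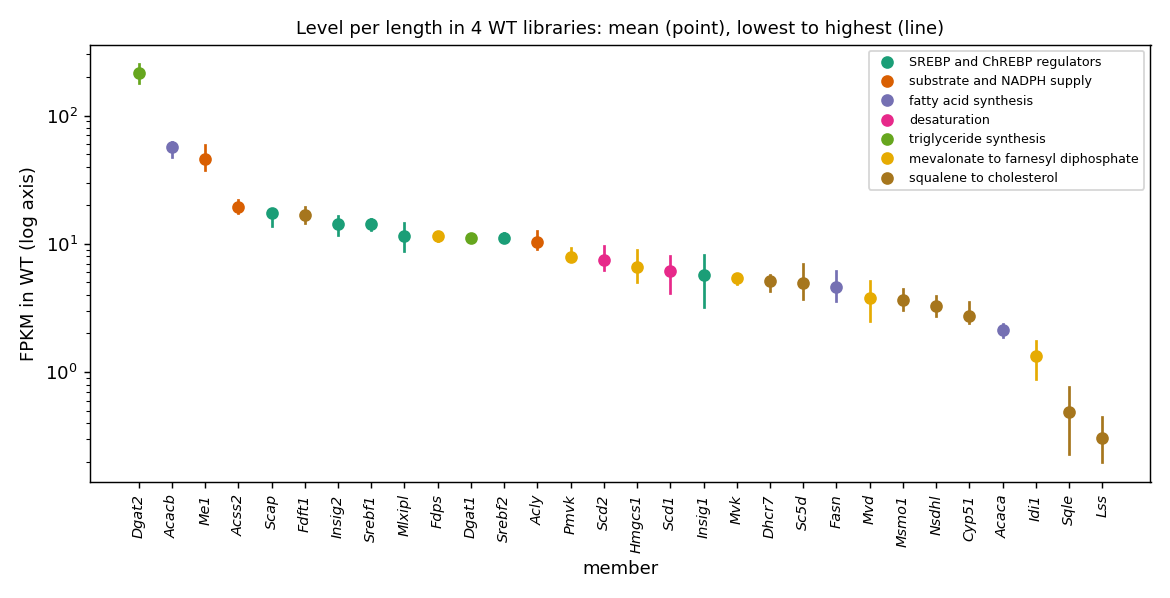
The FPKM of each gene in the 4 WT libraries is shown on a log axis as the mean (point) and the lowest to highest value (line), ordered by mean and colored by role. Dgat2 leads at 215.0 FPKM, and Sqle and Lss close the order under 1 FPKM.

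The genes that set transcription of both pathways differed little between the groups. Srebf1, the gene of SREBP-1, gave 67.6, 80.9, 66.6 and 53.3 CPM in TG replicates 1 to 4 and 69.6, 68.2, 55.7 and 56.7 CPM in WT replicates 1 to 4. Its highest value was that of TG replicate 2, the groups overlapped, and the log2 fold change was 0.10 (SE 0.14), and -0.001 (SE 0.13) without that library. Srebf2, the gene of SREBP-2, the form that favors cholesterol genes, gave 55.3, 44.6, 50.2 and 48.3 CPM in TG and 54.2, 58.8, 47.2 and 46.0 CPM in WT. Here TG replicate 2 was the lowest of all libraries, and the log2 fold change was -0.06 (SE 0.12), and -0.01 (SE 0.13) without it. Scap, whose product escorts the SREBPs to the Golgi, gave 83.5, 61.7, 80.2 and 65.1 CPM in TG and 78.4, 82.3, 58.1 and 73.8 CPM in WT. Both groups held high and low libraries, and the log2 fold change was -0.01 (SE 0.14), and 0.06 (SE 0.14) without TG replicate 2.

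Insig1 encodes a retention protein of the SCAP complex and is itself a target of SREBPs. It gave 14.7, 23.3, 15.3 and 19.5 CPM in TG and 8.63, 11.3, 21.5 and 19.1 CPM in WT. The 2 lowest libraries were WT replicates 1 and 2, and the remaining WT libraries lay inside the TG range, for a log2 fold change of 0.27 (SE 0.26, edgeR adjusted p = 0.9995) and of 0.13 (SE 0.28) without TG replicate 2. Insig2, its paralog, had a log2 fold change of 0.04 (SE 0.14), and -0.04 (SE 0.15) without it. Mlxipl gave 36.5, 45.7, 35.3 and 36.2 CPM in TG and 42.8, 44.2, 31.7 and 51.2 CPM in WT. Its groups overlapped and the log2 fold change was -0.14 (SE 0.15), and -0.24 (SE 0.16) without TG replicate 2. Over these 6 regulators the lowest unadjusted edgeR p was 0.322, and none passed the adjusted threshold. The 95% interval of Insig1 ran from -0.297 to 0.836.

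Scd1, the desaturase that makes oleate and palmitoleate, had the widest range of all members. Its level was 26.5, 1565, 29.6 and 60.9 CPM in TG replicates 1 to 4 and 31.8, 21.4, 27.7 and 38.1 CPM in WT replicates 1 to 4. The level in TG replicate 2 was 25.7-fold that of the next library, TG replicate 4, and TG replicates 1 and 3 lay inside the WT range. The log2 fold change over all libraries was 3.82 (SE 1.14, edgeR adjusted p = 0.9754), and without TG replicate 2 it was 0.39 (SE 0.28). Mouse Scd genes are close paralogs, and how the authors' counting divided reads that fit more than 1 of them is a detail not stated in the labels or headers. Scd2, the form more abundant in brain, gave 64.9 CPM in TG replicate 2 and 60.9 CPM in TG replicate 4, above 36.3 to 52.9 CPM in the other 6 libraries, with a log2 fold change of 0.31 (SE 0.18), and 0.18 (SE 0.18) without TG replicate 2.

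Fasn, the enzyme that builds palmitate, gave 51.8, 1004, 48.9 and 59.6 CPM in TG and 62.5, 53.6, 35.7 and 36.8 CPM in WT. Its level in TG replicate 2 was 16.1-fold that of the next library, WT replicate 1, and the other 3 TG libraries lay inside the WT range. Its log2 fold change was 2.62 (SE 0.87, edgeR adjusted p = 0.9995) with all libraries and 0.18 (SE 0.19) without TG replicate 2. Acaca, which makes the malonyl-CoA that Fasn consumes, gave 17.9, 178, 21.4 and 22.4 CPM in TG and 22.0, 18.3, 18.2 and 20.2 CPM in WT. The same library had 7.94-fold the level of the next, and the other 7 lay close together. For Acaca the log2 fold change was 1.60 (SE 0.63, edgeR adjusted p = 0.9995), and 0.06 (SE 0.15) without TG replicate 2. Acacb, which makes malonyl-CoA at the mitochondrion, gave 565, 447, 568 and 391.6 CPM in TG and 540, 544, 403 and 487 CPM in WT. It did not share the pattern of Acaca: TG replicate 2 ranked 6 of 8 from the top, and the log2 fold change was 0.00 (-0.002, SE 0.14), and 0.04 (SE 0.16) without it.

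Among the enzymes that supply acetyl-CoA and NADPH, Acly, ATP citrate lyase, gave 49.5, 139, 48.7 and 48.1 CPM in TG and 41.0, 44.5, 46.5 and 53.8 CPM in WT. Its level in TG replicate 2 was 2.59-fold that of WT replicate 4, the next library, and the other 3 TG libraries lay inside the WT range. The log2 fold change of Acly was 0.62 (SE 0.30), and 0.07 (SE 0.12) without that library. Me1 gave 133, 218, 136 and 151 CPM in TG and 123, 133, 160 and 186 CPM in WT. Again TG replicate 2 was the highest, with the other TG libraries inside the WT range, and the log2 fold change was 0.08 (SE 0.17), and -0.11 (SE 0.14) without it. Acss2, which makes acetyl-CoA from acetate, was also highest in TG replicate 2, at 73.6 CPM against 46.1 to 60.5 CPM in the other libraries.

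The plot of fold changes shows how far these values rest on a single library. Within the 4 libraries of greater depth (TG replicates 1 and 3, WT replicates 1 and 2), the log2 fold changes were 0.07 (SE 0.17) for Scd1, -0.20 (SE 0.12) for Fasn and -0.04 (SE 0.17) for Acaca. Within the 4 shallower libraries, which include TG replicate 2, they were 4.63 (SE 1.11), 3.87 (SE 0.96) and 2.38 (SE 0.71), with edgeR adjusted p values of 0.482, 0.492 and 0.668.

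**Figure D3:**
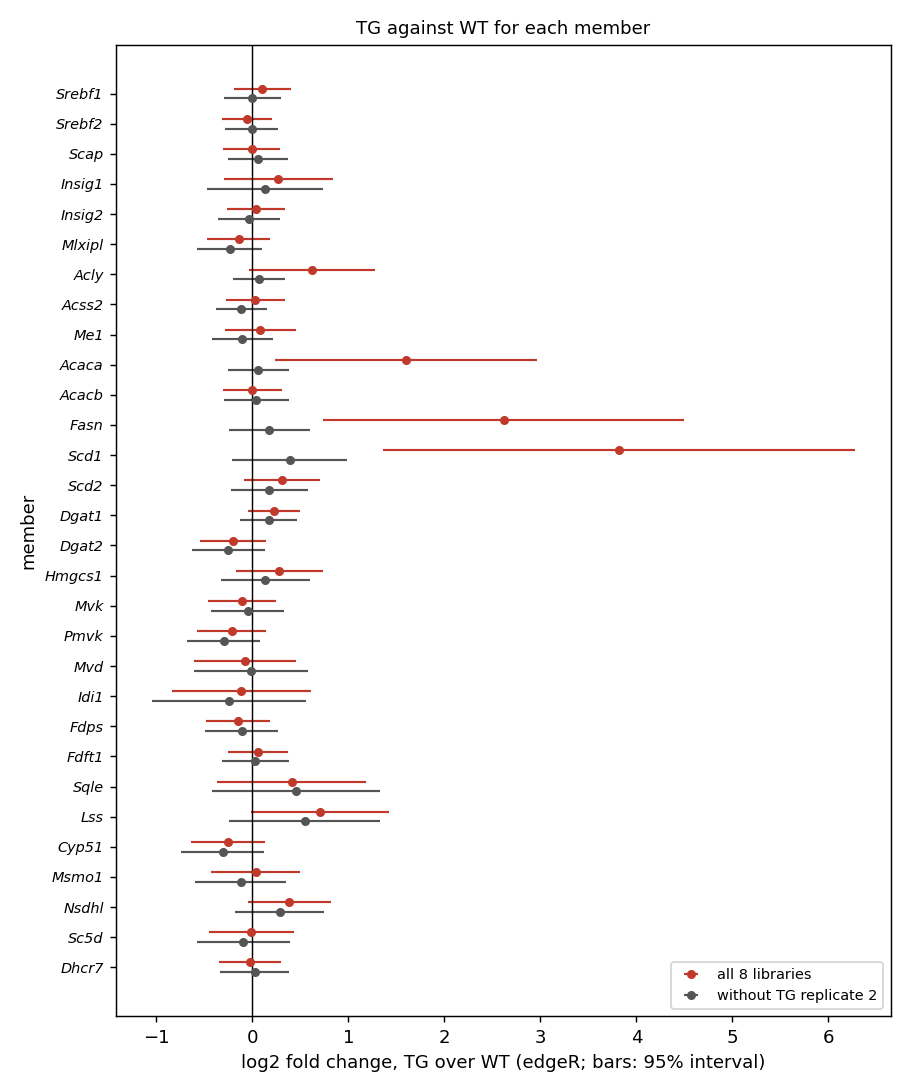
For each gene the log2 fold change of TG over WT (x axis) is shown with its 95% interval for all 8 libraries (red) and without TG replicate 2 (gray). The red intervals of Scd1, Fasn and Acaca lie above 0, and all 30 gray intervals include 0.

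Fat genes were high in the same library as these 4 lipogenic enzymes. Adipoq, the hormone adiponectin, reached 68.4 CPM in TG replicate 2, against 3.12 CPM for TG replicate 4 and 0.273 to 1.16 for the other 6 libraries. Ucp1, the uncoupling protein that defines brown fat, reached 124 CPM there, against 0.391 and 0.139 CPM for TG replicates 1 and 3 and 0 for the other 5 libraries. These values place transcripts that define fat cells in TG replicate 2 at levels far above those of the other libraries.

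Plin1, the lipid droplet coat of fat cells, gave 40.3 CPM in that library and at most 1.93 elsewhere, and Car3 gave 393 CPM and at most 18.1 elsewhere. Lipe, a lipase that heart also expresses, gave 149 CPM there and 70.1 to 105 elsewhere, and Dio2 gave 7.77 CPM and 0.409 to 4.75 elsewhere. The summed level of the 13 white adipocyte markers was 2613 CPM in TG replicate 2, 1065 to 1301 in the other TG libraries and 1091 to 1407 in WT. Most of that sum came from Fabp4 and Pnpla2, which were also abundant in the other libraries. The 7 brown adipocyte markers summed to 237 CPM in TG replicate 2, 27.7 to 32.0 in the other TG libraries and 30.8 to 36.2 in WT. Outside TG replicate 2 most of that sum came from Cidea alone, at 22.9 to 31.5 CPM, against 88.5 CPM in TG replicate 2. Slc27a2 was at 0 in all libraries but TG replicate 2.

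Atrial markers were also high in it. Myl7, the atrial myosin light chain, reached 203 CPM there, against 46.8 CPM for TG replicate 4, 1.81 and 2.87 for the other TG libraries and 1.35 to 18.8 for WT. The sum of 6 atrial markers was 859 CPM in TG replicate 2, 63.8 to 218 in the other TG libraries and 152 to 265 in WT. Most of each WT sum came from Nppa, at 143 to 219 CPM in WT. Nppa gave 324 CPM in TG replicate 2 and 56.7 to 90.2 CPM in the other TG libraries, below all WT libraries. Of these 6, Sln was at 0 in TG replicate 3 and WT replicate 2, and Bmp10 was at 0 in all libraries but TG replicate 2, where it did not reach the limit of detection. Sbk2 went the other way: it gave 3.33 CPM in TG replicate 2 and 2.50 to 4.17 in the other TG libraries, below the 5.35 to 9.14 CPM of WT. Hepatocyte markers, from the other tissue known for lipogenesis, summed to 1.34 to 4.36 CPM, with Alb (albumin) at 0 in all libraries but WT replicate 3. In bulk tissue, fewer cells of a type and less RNA per cell cannot be told apart, and the part of fat or atrial tissue in the values of Scd1, Fasn, Acaca and Acly was not tested.

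**Figure D4:**
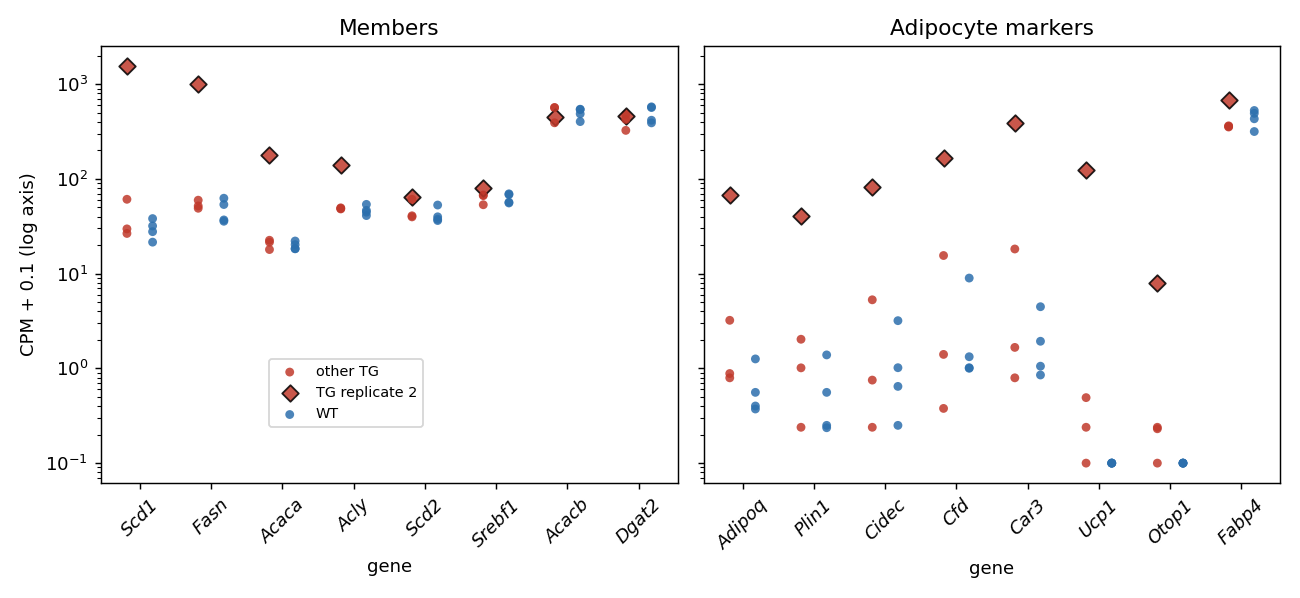
CPM plus 0.1 (log axis) is plotted per library for 8 members (left) and 8 adipocyte markers (right), with TG in red, WT in blue and TG replicate 2 as an outlined diamond. TG replicate 2 lies above the other 7 libraries for Scd1, Fasn, Acaca and Acly and for all 8 markers shown, and inside their range for Acacb and Dgat2.

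Some further genes of fatty acid synthesis were high in that library too. From a list of 18 other genes for synthesis, elongation and desaturation, 15 were tested, none passed the adjusted threshold, and 2 stood at an unadjusted p under 0.05, both higher in TG. They were Thrsp, a lipogenic regulator also called Spot 14, at 144 CPM in TG replicate 2 against 27.5 to 45.2 elsewhere (log2 fold change 1.06, SE 0.39), and Slc25a1, the mitochondrial citrate carrier, at 67.1 CPM against 8.12 to 12.9 (1.24, SE 0.54). Without TG replicate 2 the log2 fold changes were 0.31 (SE 0.15) for Thrsp and 0.11 (SE 0.21) for Slc25a1, and neither stood under that unadjusted p. Pnpla3, a lipase homolog of the lipid droplet, stood at 14.3 CPM in TG replicate 2 against 1.03 to 3.06 elsewhere. The elongase Elovl6, named after its values were seen and too low to be tested, stood at 15.4 CPM in TG replicate 2 against 0.391 to 1.504 elsewhere. TG replicate 2 was the highest library for 7 of the 18 genes and not for the other 11, and it was highest for 15.2% of all genes tested.

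The promoters of 23 of the 30 members were matched in the RefSeq table (build GRCm38.p6), as 33 windows. The 250 bases before the start of 4 of them are given below, 5′ to 3′ on the strand of the gene: Fasn and Acly because both were high in TG replicate 2, Hmgcs1 and Insig1 as sterol-regulated members of the same SREBP program. Searched on both strands were CCAAT, the site of the factor NF-Y that works beside SREBPs, the E-box CACGTG and one form of the sterol regulatory element, TCACNCCAC, none of which holds another. Capitals mark the matches, and a match on the reverse strand reads ATTGG for CCAAT. Fasn lies at chr11:120824548-120824797 (minus strand), Acly at chr11:100528001-100528250 (minus), Hmgcs1 at chr13:119690101-119690350 (plus) and Insig1 at chr5:28071162-28071411 (plus).
Fasn: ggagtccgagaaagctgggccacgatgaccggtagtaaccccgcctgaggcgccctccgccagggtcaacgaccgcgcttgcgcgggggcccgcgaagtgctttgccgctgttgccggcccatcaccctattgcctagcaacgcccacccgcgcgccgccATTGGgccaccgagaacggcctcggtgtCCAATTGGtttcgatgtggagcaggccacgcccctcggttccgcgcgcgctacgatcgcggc
Acly: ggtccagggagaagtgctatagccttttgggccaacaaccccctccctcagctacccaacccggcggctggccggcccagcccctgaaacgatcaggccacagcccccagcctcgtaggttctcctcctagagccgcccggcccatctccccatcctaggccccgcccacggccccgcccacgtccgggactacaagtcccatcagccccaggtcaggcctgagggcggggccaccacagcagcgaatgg
Hmgcs1: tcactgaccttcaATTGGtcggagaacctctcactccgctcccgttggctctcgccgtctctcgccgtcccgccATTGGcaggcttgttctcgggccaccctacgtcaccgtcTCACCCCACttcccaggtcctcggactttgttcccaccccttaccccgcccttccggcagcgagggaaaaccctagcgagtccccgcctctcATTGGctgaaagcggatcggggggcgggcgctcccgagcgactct
Insig1: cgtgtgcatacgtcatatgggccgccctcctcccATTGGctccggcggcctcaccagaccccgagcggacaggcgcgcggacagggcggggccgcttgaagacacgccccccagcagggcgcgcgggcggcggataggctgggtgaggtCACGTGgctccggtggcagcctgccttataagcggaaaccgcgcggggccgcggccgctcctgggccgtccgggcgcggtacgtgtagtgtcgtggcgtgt
The Fasn window held 3 matches to CCAAT, of which a forward and a reverse match overlap. The Hmgcs1 window held 3 matches to CCAAT and 1 to the sterol element, and the Insig1 window held 1 CCAAT and 1 E-box. The letters of the 3 motifs are not in the Acly window, nor in the window of Acaca, which was also high in TG replicate 2. Scd1 was not among the members with a matched promoter. Over the member windows, CCAAT was found in 63.6% against 33.8% of all 32851 windows of the same length. The E-box was found in 5 of the 33 member windows (15.2%, against 6.02% of all windows). The sterol element was found in 2 of them (6.06%, against 1.05%), in Hmgcs1 and Mlxipl. These shares count windows, of which a gene can have more than 1, and their differences were not tested. Mlxipl stood at 45.7 CPM in TG replicate 2, below the 51.2 CPM of WT replicate 4. In TG replicate 2 Hmgcs1 stood at 37.0 CPM, and in TG replicate 4 at 33.1 CPM, against 18.7 to 31.3 CPM in the other 6 libraries.

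In the acyltransferases of triglyceride synthesis, TG replicate 2 did not stand out as far as in Scd1, Fasn, Acaca and Acly. Dgat2 gave 479, 465, 425 and 326 CPM in TG and 567, 577, 417 and 391 CPM in WT. TG replicate 4 was the lowest and WT replicates 1 and 2 the highest, the groups overlapped, and the log2 fold change was -0.20 (SE 0.16), and -0.25 (SE 0.17) without TG replicate 2. Dgat1, the isoenzyme, lay between 18.1 and 26.0 CPM over the 8 libraries, with a log2 fold change of 0.22 (SE 0.13). Its highest value was that of TG replicate 2, 1.15-fold the next library, and without that library the log2 fold change was 0.17 (SE 0.14). From a list of 15 other genes of triglyceride synthesis and lipid droplets, 13 were tested and none stood at an unadjusted p under 0.05. Those with the smallest p were Agpat3 (log2 fold change 0.23, SE 0.11) and Gpam, the mitochondrial glycerol-3-phosphate acyltransferase (0.25, SE 0.13), followed by Gpat3 (0.21, SE 0.16). TG replicate 2 was the highest library for 4 of these 15 genes, against 15.2% of all genes tested.

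The 6 enzymes from acetyl-CoA through mevalonate to farnesyl diphosphate did not move as a group. Fdps, farnesyl diphosphate synthase and the most abundant of them per length by FPKM, gave 16.4, 11.9, 12.1 and 11.3 CPM in TG and 13.3, 15.96, 14.1 and 14.2 CPM in WT. The highest value was that of TG replicate 1, the other 3 TG libraries were below all WT libraries, and the log2 fold change was -0.15 (SE 0.16), and -0.11 (SE 0.17) without TG replicate 2. Hmgcs1, the synthase that makes HMG-CoA, had a log2 fold change of 0.28 (SE 0.21), and 0.13 (SE 0.21) without TG replicate 2. The kinases Mvk and Pmvk, the decarboxylase Mvd and the isomerase Idi1 had values from -0.22 to -0.08, and the lowest unadjusted p among the 6 was 0.207.

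From squalene to cholesterol, 8 enzymes were measured and none passed the adjusted threshold. The 95% interval of the log2 fold change was wide for some, from -0.018 to 1.427 for Lss. Fdft1, squalene synthase, gave 73.7, 69.8, 68.1 and 50.5 CPM in TG and 73.3, 67.9, 57.8 and 52.1 CPM in WT. The lowest library of each group was replicate 4, and the log2 fold change was 0.06 (SE 0.14), and 0.03 (SE 0.16) without TG replicate 2. Lss gave 4.04, 4.28, 2.08 and 2.38 CPM in TG and 1.29, 2.32, 1.504 and 2.75 CPM in WT. TG replicates 1 and 2 lay above all WT libraries and TG replicates 3 and 4 inside their range, for a log2 fold change of 0.70 (SE 0.33, edgeR adjusted p = 0.9995) that was 0.54 (SE 0.36) without TG replicate 2.

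Lss was measured at 1.29 to 4.28 CPM, a few times the limit of detection, which leaves its value with a wide error. Sqle, the step before it, lay at 0.682 to 2.11 CPM with a log2 fold change of 0.41 (SE 0.36). Cyp51, lanosterol demethylase, was 0.25 lower in TG on the log2 scale (-0.25, SE 0.18), Nsdhl 0.38 higher (SE 0.20), and Msmo1, Sc5d and Dhcr7, the last of them the final reductase of the pathway, lay between -0.03 and 0.03. From a list of 9 other cholesterol enzymes all 9 were tested and none stood at an unadjusted p under 0.05. The smallest p belonged to Acat2 (log2 fold change 0.49, SE 0.32), Ebp (-0.15, SE 0.13) and Tm7sf2 (0.16, SE 0.36). Without TG replicate 2, which was highest for Acat2 at 9.201 CPM, Acat2 stood at 0.10 (SE 0.25) and Tm7sf2 at 0.04 (SE 0.40).

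Genes around the regulators gave the same picture. Of 12 other genes of SREBP processing and sterol uptake 11 were tested and none stood at an unadjusted p under 0.05, with Erlin1 (log2 fold change 0.35, SE 0.21) and Soat1 (-0.38, SE 0.24) giving the smallest p. All 7 genes of the list for the oxysterol receptors LXR and their targets were tested and none stood under that p, with Mylip (0.17, SE 0.13), the cholesterol exporter Abca1 (0.27, SE 0.21) and Abcg1 (-0.14, SE 0.13) leading. Leaving out TG replicate 2 gave 0.10 (SE 0.20) for Abca1 and 0.09 (SE 0.13) for Mylip. TG replicate 2 was the highest library for 1 of the 9 cholesterol enzymes, 3 of the 12 regulators and 2 of the 7 LXR genes. It was so for 15.2% of all genes tested.

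Across all 30 members, TG replicate 2 was the highest library for 15, and it was so for 15.2% of all genes tested. These were 3 of 6 regulators, all 3 supply enzymes, Fasn and Acaca, both desaturases and Dgat1, and 1 of 6 mevalonate and 3 of 8 squalene enzymes. In 11 of these 15 it was at most 1.22-fold above the next library, the exceptions being Scd1, Fasn, Acaca and Acly. Of all 30 members, 21 ranged less than 2-fold from the lowest to the highest library. The median of that ratio was 1.77 for the 30 members and 1.59 for all genes tested.

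Libraries were also compared by sequencing depth. In 10 of the 30 genes the 4 deeper libraries (7394143 to 7897629 expected counts) and the 4 shallower ones (6261193 to 6557621) did not overlap. That share is near the 29.9% of all genes tested for which this held, and it is not read as a result about the members. Srebf2, Scap, Acacb, Mvk, Mvd and Dhcr7 were higher in the deeper libraries, and Insig1, Me1, Idi1 and Sc5d in the shallower ones. Insig1 gave 8.63 to 15.3 CPM in the deeper and 19.1 to 23.3 CPM in the shallower libraries. Each depth class holds 2 TG and 2 WT libraries, and within the deeper class both TG libraries were above both WT libraries for Insig1 (log2 fold change 0.59, SE 0.19, edgeR adjusted p = 0.293), against 0.08 (SE 0.17) within the shallower class. The difference between those classes was not tested. Dgat2 was lower in both deeper TG libraries than in both deeper WT libraries (-0.34, SE 0.10, edgeR adjusted p = 0.232), against -0.03 (SE 0.16) in the shallower class. Scd2 was higher in both shallower TG libraries than in the shallower WT libraries (0.71, SE 0.12, edgeR adjusted p = 0.203), against -0.15 (SE 0.15) in the deeper class. None of these passed the adjusted threshold.

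**Figure D5:**
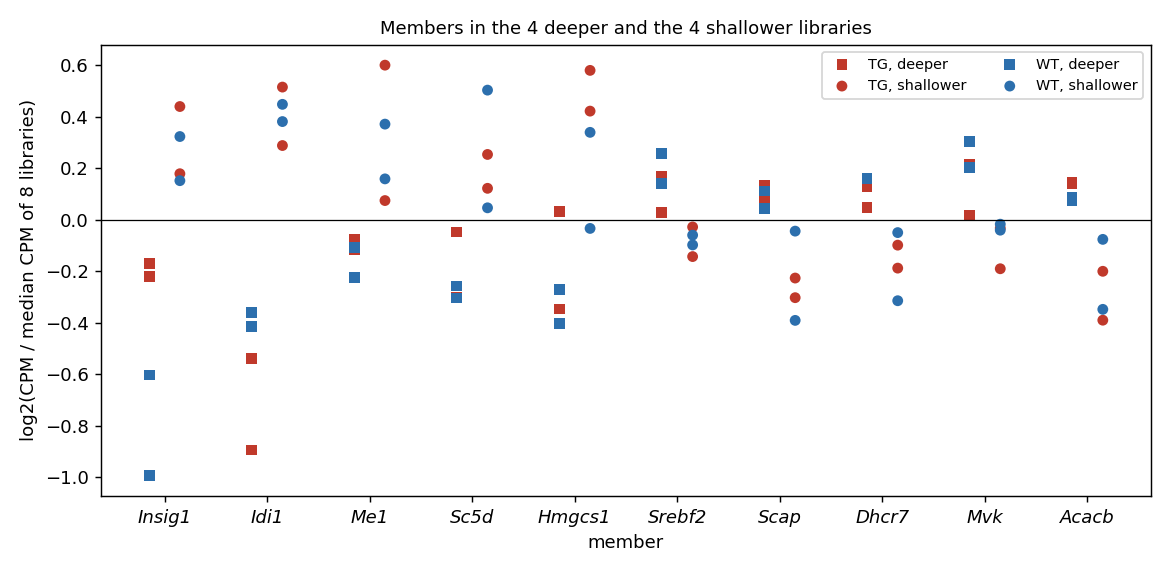
For 10 members the log2 ratio of CPM to the median of the 8 libraries is plotted for the deeper libraries (squares) and the shallower ones (circles), with TG in red and WT in blue. All genes shown but Hmgcs1 are among the members whose depth classes do not overlap, so that the separation of squares and circles follows from that choice. In Insig1 the deeper TG libraries lie above the deeper WT libraries.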

How the data were processed

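Polyadenylated RNA of mouse heart was sequenced in 8 libraries (4 TG, 4 WT by title) by the submitters. The deposited tables give, per the file headers, an expected count, an FPKM value and a transcript length for each listed NCBI Gene number, and genes not listed in a library were taken as 0. The submitters' processing notes name Bowtie2 and mm8 with no role; the labels and headers do not name the counting program. Symbols came from the RefSeq gene table of GRCm38.p6 (18174 of 18215 numbers matched). The authors' expected counts were rounded to whole numbers and tested with edgeR 4.0.16 in R 4.3.3 (TMM, filterByExpr with a minimum count of 10 and total of 15, quasi-likelihood test, Benjamini-Hochberg adjustment, threshold 0.05). The SE is the absolute log2 fold change over the square root of F. The deposited FPKM values were used for levels between genes and, as log2 with a pseudocount of 1 or 0.1, with limma 3.58.1 as an alternative, beside DESeq2 1.42.0. Only the edgeR steps were tested on simulated data, which held no outlying library and no effect of depth class on gene levels. No 2 libraries of a group agreed within sampling noise (chi-square per degree of freedom of 4.29 or more).

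The members and gene lists were chosen with earlier results of these data known. Values in every library are given for the members with an unadjusted p under 0.05 or groups that do not overlap, the 5 widest in range with a lowest value of at least 1 CPM, the most abundant of each role by FPKM and 4 regulators; of each pathway list, the up to 3 genes with the smallest p are given, and 1 gene so selected is not reported here. Of marker lists the sums, the markers at 0 and examples are given.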

Additional observations from a re-analysis of the deposited data

Results flagged for a closer look

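In 60 groups of 4 values (30 members, TG and WT), Dixon's test was applied to the highest and the lowest value. It placed such a value far from the other 3 in 8 groups, against a nominal 1 in 20 for a single group. TG replicate 2 was that value in 6 of the 8. It stood at 1565 CPM for Scd1, 1004 CPM for Fasn, 178 CPM for Acaca and 139 CPM for Acly, which are 25.7, 16.1, 7.94 and 2.59 times the next-highest of the 8 libraries. For Mlxipl it stood at 45.7 CPM, inside the range of the WT libraries, and for Dgat1 at 26.0 CPM, 1.15 times the next library. TG replicate 1 was the highest TG value for Fdps, at 16.4 CPM, and WT replicate 3 was the highest WT value for Cyp51, at 15.3 CPM. The 60 groups come from the same 8 libraries and are not independent, and the share flagged over all genes was not computed. The count of 8 is therefore not read as a result about the members. No explanation of these values was tested.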

How the results depend on the processing

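No member that was given an adjusted p passed the threshold under any of 20 alternatives (27 members were tested at a mean of at least 5 CPM, without Idi1, Sqle and Lss, and DESeq2 gave no p for Scd1, Fasn and Acaca), and the lowest adjusted p was 0.203 (Scd2, shallower libraries only). Their median log2 fold change ran from -0.01 to 0.10. The number of all genes called was 2, and became 15 with DESeq2, 4 without a filter on low counts, 1 with limma at either pseudocount, 1 with the replicate block, 0 with Carns1 left out, 28 with depth class as a covariate, 59 in the deeper and 4 in the shallower libraries, and 1 to 3 with a library left out. Members at an unadjusted p under 0.05 numbered 3, and 0 with DESeq2, limma at either pseudocount, voom with library weights or the replicate block, 5 with depth class as a covariate, 7 in the shallower libraries, and 0 (without TG replicate 2) to 7 (without TG replicate 1) with a library left out. The share of all genes at that unadjusted p was 3.49% in the main fit and was not computed for the alternatives. These counts are therefore not read as a result about the members. The cause of the changes between settings was not tested.

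Whether the replicate numbers pair the samples is not stated in the labels. Same-numbered libraries had correlations of 0.24, -0.28, -0.18 and 0.40 between their deviations from the group means. Not every library correlated best with its own number. Each TG library correlated positively with WT libraries of its own depth class and negatively with those of the other class. The correlations therefore follow depth and cannot decide whether the numbers pair the samples. With the replicate block Sc5d changed sign to 0.003, and the log2 fold changes of Scd1, Fasn and Acaca were 1.3, 1.17 and 0.83. They were 1.52, 1.07 and 0.72 with voom, 1.58, 1.17 and 0.70 with limma at a pseudocount of 1, and 1.66, 1.255 and 0.82 at 0.1.

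The fitted sign was the other one in 54 of 597 member values, and 14 members kept theirs throughout. Acacb was 0.001 with DESeq2, with its size factors and with a mean of at least 5 CPM. Msmo1 was -0.0003 and -0.004 with limma at pseudocounts of 1 and 0.1, where Sc5d was 0.001 at 0.1. Voom gave -0.011 for Acss2 and 0.078 for Sc5d. In the deeper libraries only, the signs of Srebf1 (-0.038), Scap (0.027), Acss2 (-0.16), Acaca (-0.041), Acacb (0.063), Fasn (-0.20), Scd2 (-0.15) and Sc5d (0.11) turned, and in the shallower only those of Insig2 (-0.075), Mvd (0.29), Msmo1 (-0.14) and Dhcr7 (0.037). With a library left out in turn, the ranges that cross 0 were -0.001 to 0.20 for Srebf1, -0.11 to 0.013 for Srebf2, -0.105 to 0.06 for Scap, -0.045 to 0.11 for Insig2, -0.12 to 0.12 for Acss2, -0.11 to 0.20 for Me1, -0.088 to 0.093 for Acacb, -0.24 to 0.12 for Mvd, -0.37 to 0.092 for Idi1, -0.018 to 0.17 for Fdft1, -0.12 to 0.17 for Msmo1, -0.11 to 0.18 for Sc5d and -0.12 to 0.032 for Dhcr7. Depth limits Sqle and Lss most, at 0.682 to 4.28 CPM against a detection limit of up to 0.479.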
